A study of Mus musculus with 36 samples.

Results

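The metallothioneins Mt1, Mt2 and Mt3 were followed through RNA bound to HA-tagged ribosomes from mouse spinal cord and diaphragm. They were 3 of the 18845 genes of the deposited expression table, found there by their gene symbols. They were picked because of their measured levels, above all the difference between embryonic and newborn spinal cord. The spinal cord values at E15.5 and P0.5, and the drop between P0.5 and P10, are therefore given as a description, without a test. All 36 libraries came from mice carrying Ribo-tag, an allele that adds an HA tag to a ribosomal protein in cells with Cre recombinase. Cre-positive mice also carried ChAT-Cre, which is active in cholinergic neurons such as spinal motor neurons, and Cre-negative mice carried Ribo-tag alone. The 12 groups held 3 libraries each: Cre-negative and Cre-positive diaphragm enriched for synapses, and Cre-positive spinal cord, each at 3 young ages, the embryonic stage E15.5 and the postnatal days P0.5 and P10, and in adults of 2 months. The study compared diaphragm with and without Cre to look at messages translated locally at the neuromuscular synapse. No Cre-negative spinal cord was among the samples, so the level of these genes in untagged carry-over RNA was not measured for that tissue. The labels do not say that the libraries of a group came from separate animals, so p-values measure the spread between these libraries, which may be technical.

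Metallothioneins are small, cysteine-rich proteins that bind zinc and copper. Mt1 and Mt2 are expressed in many tissues, and their transcription is induced by zinc through the metal sensor Mtf1, by glucocorticoids and by oxidative stress. In the central nervous system they are best known from astrocytes. Mt3, also called growth inhibitory factor, is the brain-enriched member and responds little to metals, and Mt4 belongs to stratified epithelia.

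The genes lie next to each other on chromosome 8 of the mouse assembly GRCm38.p6, in the order Mt4, Mt3, Mt2 and Mt1. Their RefSeq records run from 94152607 to 94154148 for Mt3, from 94172618 to 94173567 for Mt2 and from 94178883 to 94180327 for Mt1. The promoters of Mt2 and Mt3 are shown because the levels of these genes took different courses. The motifs searched were the metal response element, to which Mtf1 binds, as TGCACNC or TGCGCNC on either strand. Mt2 and Mt3 are given as the 250 bases before the RefSeq start, which lie upstream of each gene at chr8:94172368-94172617 and chr8:94152357-94152606. The promoter of Mt1 was not used here, because most of its window in the RefSeq promoter table lies inside the gene record. Both sequences are on the plus strand, from RefSeq, and capitals mark each match.
Mt2: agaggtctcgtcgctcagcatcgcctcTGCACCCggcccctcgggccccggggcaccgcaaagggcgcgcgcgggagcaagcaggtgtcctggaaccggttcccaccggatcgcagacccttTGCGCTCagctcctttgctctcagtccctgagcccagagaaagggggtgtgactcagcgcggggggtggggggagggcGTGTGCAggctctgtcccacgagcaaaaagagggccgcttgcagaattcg
Mt3: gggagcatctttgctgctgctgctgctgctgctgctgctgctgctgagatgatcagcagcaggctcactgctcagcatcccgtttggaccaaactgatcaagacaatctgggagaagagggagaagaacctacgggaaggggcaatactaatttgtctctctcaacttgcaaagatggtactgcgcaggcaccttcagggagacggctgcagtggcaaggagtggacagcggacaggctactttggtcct
The Mt2 promoter held 3 matches, at bases -223 to -217, -128 to -122 and, on the minus strand, -50 to -44, counted from the start, and that of Mt3 held 0. Of 14746 promoters of table genes searched over the same length, 27% held at least 1 match, 7.27% at least 2 and 1.83% at least 3. The antioxidant response element TGACNNNGC, found in 11.4% of promoters, matched once in Mt2, at -79 to -71, without overlap with the other matches. The glucocorticoid half-site AGAACA, the E-box CACGTG and the TATA box TATAAA, found in 12.1%, 7.45% and 8.94% of promoters, were not found in either window. These matches describe letters and not binding.

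Values are counts per 1000000 reads (CPM), the share of a library's reads that fell on a gene, scaled to 1000000. They are not corrected for gene length, so levels are compared between groups and not between genes. Read totals recovered from the CPM values came, in units of 1000000 reads, to 68.2 to 93.7 in Cre-negative diaphragm, 86.0 to 107 in Cre-positive diaphragm and 63.7 to 71.8 in spinal cord, so 3 reads were worth 0.028 to 0.047 CPM. The 11 motor neuron markers were all above 0 in every spinal cord library, with a summed level of 2624 to 3226 CPM against 4.32 to 146 CPM in diaphragm. The 12 skeletal muscle markers summed to 26842 to 104304 CPM in diaphragm. In each of the 12 groups the library closest to a weighted mean of the other 2 was called intermediate. Of its genes above a set CPM level in 1 of the other 2 or both, 51.4% to 88.2% lay between the 2. For the other libraries this share was 2.72% to 34.3%. The intermediate library was replicate 3 in 9 groups, and replicate 2 in Cre-negative diaphragm at E15.5. It was replicate 1 in Cre-positive diaphragm at P0.5 and in adult Cre-negative diaphragm. Its distance from that mean, in counting errors, was 1.51 to 3.13, against 2.37 to 28.6 for the other libraries. Across groups the distances thus overlapped. In Cre-positive diaphragm at P0.5 the weights were 0.04 for replicate 2 and 0.96 for replicate 3. Replicate 1 was thus close to replicate 3 alone. Whether the intermediate libraries are separate samples is not stated. Calls of the members in the main test are given with and without them. Member differences that were not called, and adjusted p-values of other genes, are mostly given with all libraries only.

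In spinal cord, Mt1 and Mt2 were lowest at E15.5, highest at P0.5 and in between later. Mt1 measured 109, 76.2 and 101 CPM in replicates 1, 2 and 3 at E15.5 and 1360, 2030 and 1611 CPM at P0.5. At P10 it measured 309, 307 and 306 CPM, and in adults 477, 464 and 455 CPM. The ages did not overlap, and the mean of 1667 ± 338 CPM (SD, n = 3) at P0.5 was 17.5-fold above the 95.4 ± 17.1 CPM of E15.5 and 5.42-fold above the 307 ± 1.75 CPM of P10. Even the lowest newborn library exceeded the highest embryonic library 12.5-fold.

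Mt2 followed the same course with a larger step. Its replicates measured 22.7, 16.8 and 22.3 CPM at E15.5 and 485, 683 and 562 CPM at P0.5. They measured 100.7, 94.0 and 97.4 CPM at P10 and 130, 134 and 138 CPM in adults. The means were 20.6 ± 3.28, 577 ± 99.8, 97.4 ± 3.36 and 134 ± 4.17 CPM (SD, n = 3 each), a 28.0-fold step between the first 2 ages and a 5.92-fold step down after it. The lowest newborn library exceeded the highest embryonic library 21.4-fold.

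Mt3 did not share the drop after birth. It measured 564, 423 and 479 CPM at E15.5 and 1387, 1454 and 1348 CPM at P0.5. The P10 libraries measured 1556, 1323 and 1453 CPM and the adult ones 1822, 2224 and 2003 CPM. The mean at P0.5, 1396 ± 53.7 CPM, was 2.86-fold above the 488 ± 70.8 CPM of E15.5, with no overlap. The P0.5 and P10 libraries overlapped, with a ratio of means of 1.03, and adults stood above both at 2017 ± 201 CPM (SD, n = 3).

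**Figure D1:**
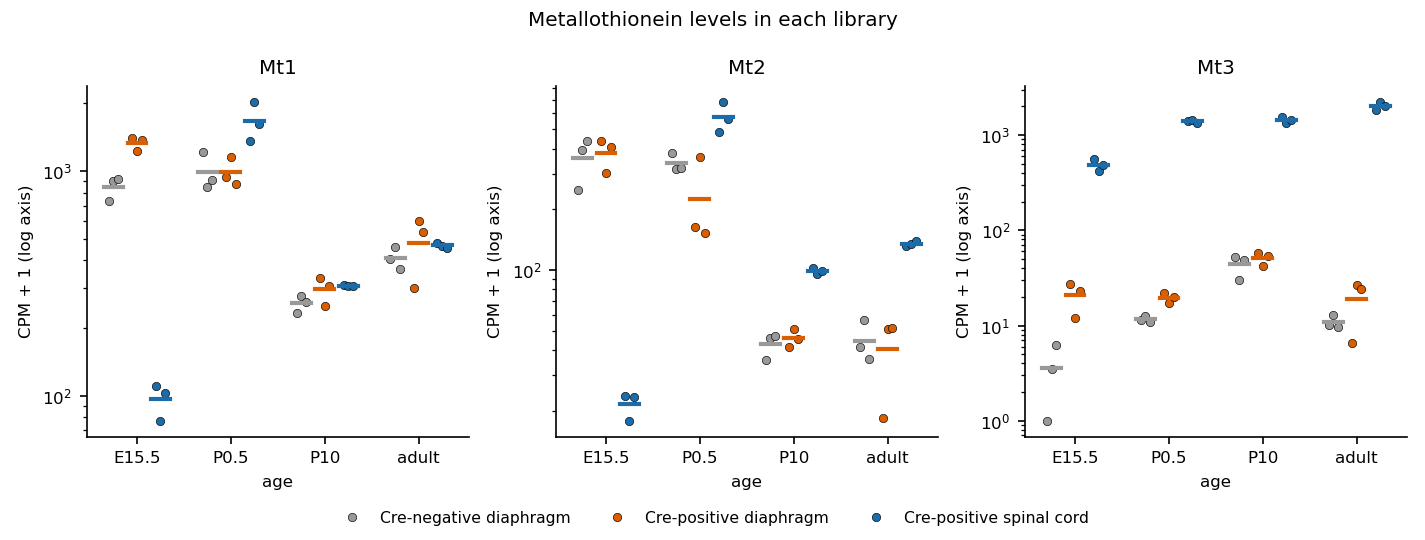
Level of Mt1, Mt2 and Mt3 in each of the 36 libraries, as CPM + 1 on a log axis, by age; points are libraries, bars are means of the 3 libraries of a group, and colours are Cre-negative diaphragm, Cre-positive diaphragm and spinal cord. Mt1 and Mt2 in spinal cord go from 95.4 and 20.6 CPM at E15.5 to 1667 and 577 CPM at P0.5 and down again by P10, while Mt3 stays near 1396 to 2017 CPM from P0.5 on.

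On the log2(CPM + 1) scale the difference from E15.5 to P0.5 was 4.11 (SE 0.14) for Mt1, 4.74 (SE 0.12) for Mt2 and 1.52 (SE 0.097) for Mt3. Over all 13373 genes tested in spinal cord, 72.3% passed an adjusted p of 0.05 in this comparison and 78.7% in that from P0.5 to P10. From P0.5 to P10 the differences were -2.42, -2.54 and 0.05. Other scalings, pseudocounts, filters and designs, and leaving out the intermediate libraries, gave 4.11 to 4.28, 4.74 to 4.96 and 1.52 to 1.68 for the first interval and -2.43 to -2.31, -2.55 to -2.44 and 0.01 to 0.15 for the second. Leaving out 1 library at a time gave 3.96 to 4.25, 4.61 to 4.86 and 1.42 to 1.63 for the first interval. For the second it gave -2.55 to -2.26 for Mt1, -2.66 to -2.41 for Mt2 and -0.0095 to 0.11 for Mt3, whose sign was negative without replicate 1 of P10.

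Markers of other cells also differed between these ages in the spinal cord libraries. The 15 astrocyte markers, all above 0 in all 12 libraries, summed to 659 ± 142 CPM at E15.5, 1205 ± 15.4 at P0.5, 2014 ± 23.7 at P10 and 2709 ± 55.0 in adults (SD, n = 3 each). By gene, 13 of the 15 rose and none fell from E15.5 to P0.5, and 6 rose and 7 fell from P0.5 to P10. The 12 oligodendrocyte lineage markers summed to 164 ± 19.5 CPM at E15.5, 1025 ± 38.3 at P0.5, 18593 ± 2712 at P10 and 3397 ± 859 CPM in adults (SD, n = 3 each), and 10 of them rose and 1 fell in each of the first 2 intervals. Over all genes, 27.9% were called higher and 44.4% lower in the first interval, and 35.2% and 43.5% in the second. Without the intermediate libraries the astrocyte counts were 10 and 0, then 5 and 6. Those of oligodendrocyte markers are not given here. The 10 hepatocyte markers summed to 31.1 to 71.6 CPM at E15.5, 114 to 194 at P0.5, 17.3 to 19.1 at P10 and 31.4 to 280 CPM in adults. The 12 skeletal muscle markers summed to 798 to 1616, 1041 to 4770, 63.0 to 457 and 16.4 to 22.9 CPM at the same ages. Among the P0.5 libraries, Mt1 and Mt2 were lowest in replicate 1 and highest in replicate 2. Of 11 marker lists, 4 had the same order of libraries and 5 the reverse order. Replicate 3 was the intermediate library of this group, close to a weighted mean of replicates 1 and 2 (weights 0.55 and 0.45). Its middle place was thus largely set beforehand, which leaves mainly these orders, so no cell type can be read from a shared order. Connective tissue (399.5, 896 and 620 CPM in replicates 1, 2 and 3), microglia (115, 164 and 142), endothelial (59.8, 71.9 and 62.2) and erythroid markers (3476, 3649 and 3481) had the same order. Skeletal muscle (4770, 1041 and 3024), hepatocyte (194, 114 and 145), adipocyte, oligodendrocyte and motor neuron markers had the reverse order. The part of RNA from other cells in the metallothionein levels was not tested, and fewer cells of a type cannot be told apart from less RNA per cell in such bulk samples.

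From P10 to adult, an interval that was not the main ground for choosing the genes, all 3 rose in spinal cord. The genes were picked by measured levels with earlier results known, so these p-values are not shown to be independent of the choice. The fit also took its spread from the spinal cord libraries of the younger ages. Of the 13373 genes tested, 67.9% passed in one direction or the other. Mt1 rose by 0.60 (SE 0.14, 95% interval 0.32 to 0.87, limma adjusted p = 0.0030), from 307 to 465 CPM. Mt2 rose by 0.46 (SE 0.12, adjusted p = 0.0040 in limma) and Mt3 by 0.48 (SE 0.097, adjusted p = 6.2e-04 in limma). The ages did not overlap for any of them. Without the intermediate libraries the limma adjusted p was 0.053 for Mt1, 0.055 for Mt2 and 0.016 for Mt3, so the first 2 calls were lost, and 48.8% of genes passed. The astrocyte marker sum was 2014 CPM at P10 and 2709 CPM in adults, but by gene 2 of the 15 rose and 9 fell (1 and 5 without the intermediate libraries), with a median of -0.35. Of all genes 23.6% rose and 44.3% fell (15.8% and 33% without those libraries), a split of 3153 against 5926 that quantile scaling turned to 4881 against 4017. The part of astrocyte RNA in the metallothionein changes was not tested.

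In diaphragm, Mt1 and Mt2 were already high at E15.5 and fell after birth, while Mt3 was low throughout and highest at P10. Mt1 in Cre-positive diaphragm measured 1397, 1232 and 1376 CPM at E15.5, 941, 1156 and 871 at P0.5 and 334, 249 and 306.5 at P10. Adult libraries of that genotype measured 301, 600 and 537 CPM. In Cre-negative diaphragm it measured 731, 904 and 917 CPM, then 1211, 852 and 914, then 233, 277 and 261, and 406, 459 and 364 CPM in adults. Every library of either genotype at E15.5 and P0.5 was above every one at P10.

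Ages in diaphragm were compared as the mean of the Cre-negative and Cre-positive changes. From P0.5 to P10, where 34.4% of 13853 genes passed, all 3 members passed the test. Mt1 fell by 1.83 (SE 0.14, adjusted p = 2.5e-09 in limma) and Mt2 by 2.59 (SE 0.24, adjusted p = 5.9e-08), while Mt3 rose by 1.63 (SE 0.37, adjusted p = 0.0018). In CPM the fall was 3.34-fold for Mt1 and 5.01-fold for Mt2 with Cre, and 3.86-fold and 8.10-fold without. Without the intermediate libraries the Mt1 and Mt2 calls held (adjusted p = 5.0e-05 and 1.6e-04 in limma) and that of Mt3 did not (1.58, adjusted p = 0.10), with 8.36% of genes past the threshold.

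Mt2 in Cre-positive diaphragm measured 434, 303 and 409 CPM at E15.5, 163, 361 and 151 at P0.5 and 40.6, 49.7 and 44.6 at P10. Its adult values there were 17.3, 49.9 and 50.5 CPM. In Cre-negative diaphragm it measured 248, 394.5 and 437 CPM, then 381, 316 and 320.5, then 34.6, 44.9 and 46.2, and 40.2, 55.2 and 35.0 CPM in adults. The P10 and adult libraries of Mt2 thus overlapped for both genotypes. Those of Mt1 overlapped with Cre and did not without.

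From P10 to adult 32% of genes passed in diaphragm. Mt1 rose by 0.65 (SE 0.14, adjusted p = 0.0011 in limma) and Mt3 fell by 1.82 (SE 0.37, adjusted p = 7.4e-04), but without the intermediate libraries the adjusted p was 0.099 and 0.062, with 6.57% of genes past the threshold. The difference of Mt2 was -0.15 (95% interval -0.62 to 0.33, adjusted p = 0.70 in limma), and its sign varied between settings, from -0.22 to 0.25. The lowest library for all 3 genes among adult Cre-positive diaphragms was replicate 1.

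From E15.5 to P0.5, the interval of the large step in spinal cord, 46.6% of genes passed in diaphragm, Mt3 among them. The difference of Mt1 was -0.11 (95% interval -0.39 to 0.16, adjusted p = 0.53 in limma), with a sign that scaling turned, from -0.11 to 0.21, and that of Mt2 was -0.46 (-0.93 to 0.02, adjusted p = 0.13). In Cre-positive diaphragm alone Mt1 was 1.35-fold lower at P0.5, with no overlap, and in Cre-negative diaphragm 1.17-fold higher, with overlap. Leaving out replicate 2 of Cre-positive diaphragm at P0.5 brought Mt2 to -0.66 (adjusted p = 0.023 in limma). Hepatocyte markers summed to 14862 CPM in that library against 2514 and 1939 CPM in the other P0.5 Cre-positive ones, 186 to 205 CPM in the Cre-negative ones and 12533 to 16263 CPM in E15.5 diaphragm. It also had the highest Mt2 of its group, 361 CPM, and the part of hepatocyte RNA in this value was not tested.

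Mt3 in diaphragm stood at 26.4, 10.99 and 21.9 CPM in Cre-positive libraries at E15.5, 20.7, 16.2 and 18.7 at P0.5 and 57.2, 41.2 and 53.1 at P10, with adults at 5.48, 25.4 and 23.4 CPM. Cre-negative diaphragm held 0, 2.50 and 5.27 CPM, then 10.3, 11.7 and 9.78, then 51.9, 28.7 and 47.8, and 9.23, 11.9 and 8.74 CPM in adults. In the library at 0, 3 reads make 0.0366 CPM, and the other 2 of its group had 201 and 421 Mt3 reads. By genotype the mean was 4.09-fold higher at P0.5 than at E15.5 without Cre, with no overlap, and 0.94-fold with Cre, with overlap. The rise from E15.5 to P0.5 averaged over both genotypes was 1.02 (SE 0.37, adjusted p = 0.029 in limma), and lost its call without the intermediate libraries (1.14, adjusted p = 0.18, with 18.1% of genes past the threshold). It was also lost on leaving out replicate 1 of the Cre-negative E15.5 group (0.65, adjusted p = 0.097), which is the library at 0, replicate 2 of the Cre-positive one (0.84, adjusted p = 0.085) or replicate 1 of the Cre-positive P0.5 group (0.98, adjusted p = 0.058, all limma).

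The comparison of Cre-positive with Cre-negative diaphragm addresses which messages lie on tagged ribosomes of cholinergic axons. The 11 motor neuron markers summed to 70.9 ± 14.8 CPM with Cre and 74.5 ± 35.0 without at E15.5, and to 20.6 ± 2.11 and 89.8 ± 49.3 CPM at P0.5. At P10 the sums were 14.6 ± 4.71 with Cre and 9.47 ± 1.30 without, and for adults 5.25 ± 0.822 and 15.49 ± 5.21 CPM (SD, n = 3 each). They were thus lower with Cre in the mean at every age but P10. At E15.5, where 11% of 13853 genes passed, Mt1 and Mt3 were higher with Cre and the groups did not overlap. Mt1 was 1335 ± 89.4 CPM with Cre and 851 ± 104 CPM without (SD, n = 3 each), a difference of 0.66 (SE 0.20, 95% interval 0.27 to 1.04, adjusted p = 0.0358 in limma). Mt3 was 19.8 ± 7.92 CPM against 2.59 ± 2.63 CPM, a difference of 2.81 (SE 0.53, 95% interval 1.77 to 3.84, adjusted p = 0.00181 in limma). Both calls were lost without the intermediate libraries, at adjusted p = 0.62 and 0.41 in limma, where 7 genes in all, or 0.0527%, passed. Leaving out 1 library at a time, that of Mt1 was lost in 5 of 6 cases and that of Mt3 in none of 6, though its difference was 2.06 without the Cre-negative library at 0. Mt2 differed by 0.11 (95% interval -0.56 to 0.78, adjusted p = 0.89 in limma). At this age erythroid markers summed to 129463 to 216250 CPM with Cre and 118086 to 123799 CPM without. Hepatocyte markers summed to 12533 to 14410 CPM with Cre and 15713 to 16263 CPM without. The part of such RNA in the Cre differences was not tested.

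At later ages no member passed. The shares of all genes that passed were 27.7% at P0.5, 1.45% at P10 and 12% in adults. At P0.5 the difference was 0.00 (95% interval -0.39 to 0.39, adjusted p = 1 in limma) for Mt1, with -0.02 to 0.43 over the settings, and 0.75 (-0.28 to 1.78, adjusted p = 0.30) for Mt3. That of Mt2 was -0.70 (-1.37 to -0.03, adjusted p = 0.13 in limma) and passed, at -1.10 with adjusted p = 0.021, without the Cre-positive replicate 2 named for its hepatocyte markers. Mt3 at P0.5, 18.6 ± 2.24 CPM with Cre and 10.6 ± 0.985 CPM without, did not overlap. At P10 the differences were 0.20 for Mt1, 0.11 for Mt2 and 0.26 for Mt3, and in adults 0.17, -0.26 and 0.57, with adjusted p from 0.57 to 0.97 in limma, and the adult sign of Mt2 turned with scaling, from -0.56 to 0.27. The change of the Cre difference between neighbouring ages, a test that 9.9%, 10.3% and 4.21% of genes passed over the 3 intervals, was called for no member. The largest, for Mt3 from E15.5 to P0.5, was -2.05 (adjusted p = 0.084 in limma), and passed without replicate 3 of the Cre-negative E15.5 group (-2.63, adjusted p = 0.024).

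Spinal cord and Cre-positive diaphragm differed in opposite ways for the 3 genes at E15.5. Mt1 and Mt2 were 14.0-fold and 18.6-fold lower in spinal cord, and Mt3 was 24.7-fold higher, with no overlap. At P0.5 all 3 were higher in spinal cord, by 1.69-fold, 2.56-fold and 75.3-fold. Both are descriptions, since the spinal cord values at these ages chose the genes. At E15.5 erythroid markers summed to 129463 to 216250 CPM in Cre-positive diaphragm and 3987 to 5402 CPM in spinal cord. Hepatocyte markers summed to 12533 to 14410 CPM and 31.1 to 71.6 CPM in the same groups. The part of such RNA in the tissue differences was not tested.

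At P10 and in adults the tissue difference was tested over 14831 genes, of which 73% and 74.8% passed. Mt1 did not pass at either age, at 0.06 (95% interval -0.33 to 0.45, adjusted p = 0.79 in limma) and 0.02 (-0.37 to 0.41, adjusted p = 0.94). Mt2 was higher in spinal cord by 1.10 (SE 0.32, adjusted p = 0.0045 in limma) at P10, where means were 97.4 ± 3.36 and 45.0 ± 4.58 CPM, and by 1.89 (SE 0.32, adjusted p = 2.3e-05) in adults, at 134 ± 4.17 and 39.3 ± 19.0 CPM. Mt3 was higher by 4.82 (SE 0.36, adjusted p = 2.7e-10 in limma) and 6.96 (SE 0.36, adjusted p = 6.6e-13), or 28.6-fold and 111-fold in mean CPM. Without the intermediate libraries the call of Mt2 at P10 was lost (1.10, adjusted p = 0.060 in limma) and the other 3 held, where 57.9% and 62.5% of genes passed.

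These tissue values hold on the CPM scale, where the median difference over all genes was 0.63 at P10 and 0.72 in adults. Quantile scaling brought that median to -0.06 and -0.02 and RLE size factors to 0.20 and 0.23. The split of higher against lower calls went with it, from 7881 against 2952 to 4979 against 5305 at P10 and from 8195 against 2895 to 5356 against 5300 in adults with quantile scaling. Relative to all genes Mt1 was then lower in spinal cord, at -0.69 (adjusted p = 0.0033 in limma) at P10 and -0.73 (adjusted p = 0.0019) in adults, so its direction rests on the scaling. Mt2 was 0.13 and 0.72, neither past the threshold, while Mt3 passed at both ages in every setting tried.

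From P10 to adult the tissue difference of Mt3 widened by 2.14 (SE 0.51, 95% interval 1.14 to 3.15, adjusted p = 0.0032 in limma), a contrast added after the levels were seen that 34.3% of genes passed. The means at the 2 ages were 1444 and 2017 CPM in spinal cord and 50.5 and 18.1 CPM in Cre-positive diaphragm. Without the intermediate libraries it was 2.41 (adjusted p = 0.083 in limma), with 6.59% of genes past the threshold. The same contrast gave -0.04 for Mt1 (adjusted p = 0.93 in limma) and 0.79 for Mt2 (95% interval -0.10 to 1.68, adjusted p = 0.19).

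**Figure D2:**
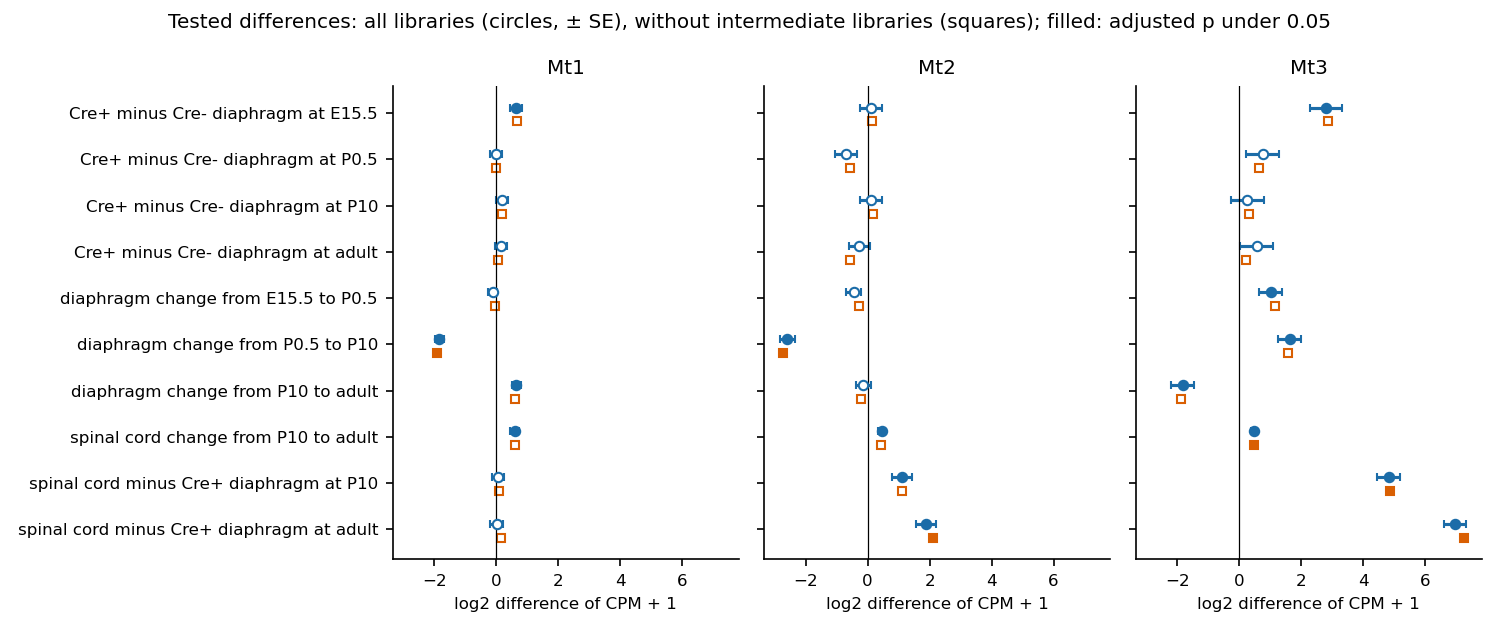
Differences of log2(CPM + 1) for Mt1, Mt2 and Mt3 with all libraries (circles, bars ± SE) and without the intermediate libraries (squares), filled where the adjusted p is under 0.05. Drawn are the Cre differences, the diaphragm changes, the spinal cord change from P10 to adult and the tissue differences at P10 and in adults. The tested changes of the Cre and tissue differences are not drawn. With Cre at E15.5 Mt3 lies at 2.81 and 2.86, and in adults the Cre differences lie at 0.17 and 0.05 for Mt1, -0.26 and -0.56 for Mt2 and 0.57 and 0.23 for Mt3, with all libraries and without the intermediate ones.

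Placed in order of their means, many neighbouring groups overlapped. For Mt1, newborn spinal cord (1667 CPM) overlapped E15.5 Cre-positive diaphragm (1335 CPM), followed by the P0.5 diaphragms and E15.5 Cre-negative diaphragm at 851 to 992 CPM, which overlapped. The 3 adult groups overlapped, with means of 410 to 479 CPM. Of the 3 P10 groups, with means of 257 to 307 CPM, Cre-positive diaphragm (249 to 334 CPM) overlapped each of the others. P10 spinal cord (306 to 309 CPM) and P10 Cre-negative diaphragm (233 to 277 CPM) did not overlap. Adult Cre-positive diaphragm, with libraries from 301 to 600 CPM, also reached into the range of P10 Cre-positive diaphragm and P10 spinal cord, and embryonic spinal cord was alone at the bottom. For Mt2, newborn spinal cord stood apart above the 4 E15.5 and P0.5 diaphragm groups, which overlapped at 225 to 382 CPM. Adult and P10 spinal cord came next, each apart, then the later diaphragm groups at 39.3 to 45.0 CPM, of which adult Cre-positive diaphragm reached into the range of embryonic spinal cord. For Mt3 the 4 spinal cord groups led, with P10 and P0.5 overlapping, followed by the P10 diaphragms at 42.8 and 50.5 CPM, and the lowest group was E15.5 Cre-negative diaphragm.

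The balance of Mt1 to Mt2 also differed between tissues and ages. The ratio of their CPM carries the ratio of their lengths, so only its change between groups can be read. In spinal cord it was 4.63 ± 0.16 at E15.5, 2.88 ± 0.085 at P0.5, 3.16 ± 0.098 at P10 and 3.48 ± 0.19 in adults (SD, n = 3 each). In diaphragm it was higher at each later age, at 2.44 ± 0.44, 2.91 ± 0.25, 6.19 ± 0.55 and 9.61 ± 1.12 without Cre and 3.55 ± 0.45, 4.91 ± 1.48, 6.70 ± 1.62 and 13.3 ± 3.54 with Cre. Over the 6 diaphragm libraries of an age, a two-sided exact permutation test gave p = 0.22 for E15.5 to P0.5, p = 0.015 (0.023 adjusted over the 3 intervals) for P0.5 to P10 and p = 0.0022 (adjusted 0.0065) for P10 to adult. Geometric means went from 3.71 to 6.37 to 11.2 over the latter 2, and P10 and adult libraries did not overlap. Without the intermediate libraries, with 4 libraries per age, the adjusted exact permutation p was 0.086 for both. P10 and adult libraries still did not overlap there, with geometric means of 6.44 and 11.6. Their unadjusted exact permutation p of 0.029 was the smallest possible with 4 libraries per age. The adjusted value for P10 to adult is thus limited by the number of libraries.

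**Figure D3:**
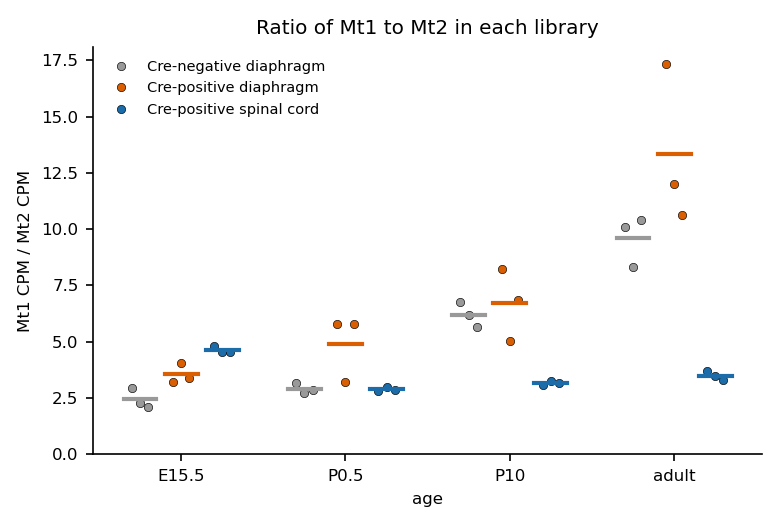
Ratio of Mt1 CPM to Mt2 CPM in each library by age, with bars at the means of the 3 libraries of a group. The group means lie between 2.88 and 4.63 in spinal cord, with libraries from 2.81 to 4.81, and reach 9.61 and 13.3 in adult Cre-negative and Cre-positive diaphragm.

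Likeness of profile was measured by Pearson's r of log2(CPM + 1), as a description. Over the 12 group means and 10031 genes, the gene most like Mt1 was Mt2, with r of 0.907, followed by Uqcc2 (0.798), a mitochondrial assembly factor, Siva1 (0.740), Agt (0.738) and Hamp (0.685), the gene of the liver hormone hepcidin. For Mt2 it was Mt1, then Agt (0.903), which encodes angiotensinogen and is expressed in liver and astrocytes, Chil1 (0.778), Csad (0.771) and Mrpl17 (0.764). Mt3 had r of -0.265 with Mt1 and -0.070 with Mt2, and genes most like it included Cx3cl1 (0.976), a neuronal chemokine, Kctd17 (0.975), Atp6v0e2 (0.974) and the synaptic vesicle GTPase Rab3a (0.970). These points share 2 tissues, so genes that simply differ between tissues score high. Hamp was low, with its highest group mean, 11.75 CPM, in Cre-positive diaphragm at P0.5. Its libraries there measured 3.38, 30.55 and 1.32 CPM in replicates 1, 2 and 3. Without replicate 2, the library named for its hepatocyte markers, that mean was 2.35 CPM.

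Within the 12 spinal cord libraries Mt1 and Mt2 had r of 0.997 over 8080 genes compared, and Mt3 had 0.705 with Mt1 and 0.726 with Mt2. These libraries form 4 ages of 3, so r mostly ranks age profiles. Besides each other, Rnf13 (0.985 and 0.987) and Siva1 (0.985 and 0.988) were among the genes most like both. Rnf13, a ubiquitin ligase, had means of 20.9, 87.2, 40.2 and 53.5 CPM at the 4 ages, and the apoptosis regulator Siva1 had 21.1, 48.5, 30.5 and 32.1 CPM. Both were picked for this likeness, so their peak at P0.5 follows from the choice. Their steps were smaller than those of Mt1 or Mt2. Most like Mt3 was Vamp1 (0.993), a synaptic vesicle protein, at 101.5, 378, 428 and 648.5 CPM, followed by Nrip2 (0.988), Ypel3 (0.988), Sem1 (0.986) and Mvb12a (0.986).

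Genes beside the cluster on chromosome 8, chosen by position after the data were seen, had no like step. From E15.5 to P0.5 in spinal cord, Nudt21 fell by 0.17 (adjusted p = 0.016), Ogfod1 by 0.31 (0.014), Bbs2 by 0.72 (5.2e-07) and Nup93 by 0.27 (0.0032), all in limma. Herpud1 differed by 0.00 (adjusted p = 0.98 in limma), and Slc12a3 and Nlrc5 were near 0. Mt4, between Bbs2 and Mt3, was at 0 in 30 of 36 libraries and at most 0.843 CPM.

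Genes that handle zinc and copper were split in direction at the step from E15.5 to P0.5. In spinal cord, where 27.9% of all genes tested were called higher and 44.4% lower with a median of -0.13, 6 of 20 zinc genes rose and 8 fell (5 and 8 without the intermediate libraries, where 20.9% and 35.7% of all genes did), with a median of -0.02 that scaling moved to between 0.11 and 0.12. RLE size factors changed the split over all genes from 3732 higher and 5936 lower to 4819 and 4776. With them 9 zinc genes were higher and 8 lower, so the majority direction rests on the scaling. Mtf1, the metal sensor, was 3.23 CPM at E15.5 and 3.44 at P0.5, a difference of 0.07 (adjusted p = 0.43 in limma). Slc30a1, the zinc exporter that Mtf1 controls, was 2.98 and 2.998 CPM, a difference of 0.01 (adjusted p = 0.94). The vesicular zinc transporter Slc30a3 rose by 1.33 and Slc30a9 by 0.70, and the importers Slc39a10 and Slc39a14 fell by 0.92 and 0.80. Of 16 copper genes 5 rose and 7 fell (3 and 5 without those libraries), and Atox1, a copper chaperone, rose by 0.82 while the copper pump Atp7a fell by 1.31. The copper split also turned with RLE size factors, to 7 higher and 6 lower.

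Of 17 genes controlled by the glucocorticoid receptor, 8 rose and 3 fell at this step (6 and 3 without the intermediate libraries), with a median of 0.09. Klf9, a transcription factor, rose by 0.98 and Sult1a1 by 0.89, while Ddit4 and Dusp1 fell by 1.14 and 0.79. Of 18 targets of Nrf2, the transcription factor of the oxidative stress response, 11 rose and 5 fell (8 and 5), with a median of 0.30. The glutathione transferase Gstm1 rose by 1.90 and the ferritin chain Fth1 by 1.19, and Nfe2l2, the gene of Nrf2 itself, fell by 1.16. Of 15 astrocyte markers 13 rose and none fell (10 and 0 without the intermediate libraries), with a median of 1.12, led by Agt at 3.13 and Gfap, the astrocyte filament, at 2.82. Agt is thus also the gene second in likeness to Mt2 over the groups.

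Over the next interval in spinal cord, P0.5 to P10, when Mt1 and Mt2 came down, 35.2% of all genes were called higher and 43.5% lower, with a median of -0.08. Of 20 zinc genes 3 rose and 12 fell (3 and 8 without the intermediate libraries, where 29.9% and 36.8% of all genes did), with a median of -0.21. RLE size factors gave 4 higher and 8 lower. Slc30a1 rose by 0.53 (adjusted p = 6.8e-05 in limma) and Mtf1 differed by -0.08 (adjusted p = 0.37). The importer Slc39a14 rose by 1.32 and Slc39a6 fell by 1.28. Copper genes were split, 7 higher and 7 lower of 16 (5 and 3), with Cox17, a chaperone for cytochrome oxidase, up by 2.75.

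Among glucocorticoid targets 9 of 17 rose and 6 fell from P0.5 to P10 (8 and 6 without the intermediate libraries). The receptor gene Nr3c1 rose by 1.79 and Bcl6 by 2.00, and the cell cycle inhibitor Cdkn1a fell by 2.92. Of 18 Nrf2 targets 9 rose and 7 fell (9 and 7), and Nfe2l2 rose by 3.21 while Gstm1 fell by 3.10 and the haem oxygenase gene Hmox1 fell by 1.92. Of the astrocyte markers 6 rose and 7 fell (5 and 6). S100b rose by 2.52 and Slc1a3 fell by 1.49. The counts per list are descriptions beside those over all genes.

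**Figure D4:**
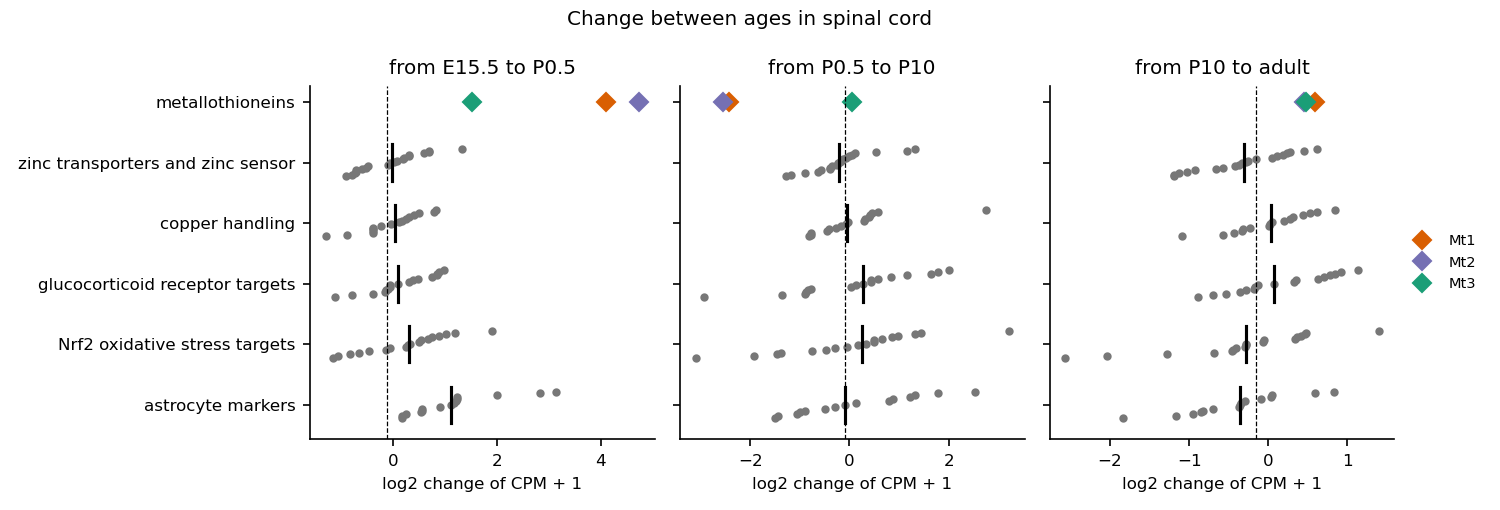
Difference of log2(CPM + 1) between neighbouring ages in spinal cord for Mt1, Mt2 and Mt3 (diamonds) and for each gene of 5 lists (grey points); bars are list medians and the dashed line is the median of all genes. Mt1 and Mt2, at 4.11 and 4.74, lie to the right of every listed gene from E15.5 to P0.5, the highest being Agt at 3.13.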

How the data were processed

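Each library's deposited values are CPM per gene, made by the authors, and every column sums to 1000000. The submitters' processing notes name Bowtie2 2.2.5, RSEM 1.2.12 and the mouse build mm10, without roles or order. How any reads shared by metallothionein genes were assigned is not given in the sources used here. Part of a level may thus be misassigned between Mt1 and Mt2. CPM steps gave whole reads for 100% of values (within 0.1 read), and for replicate 3 of Cre-positive diaphragm at P0.5 the depth is an estimate.

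The main test was limma 3.58.1 (trend, robust) in R 4.3.3 on log2(CPM + 1), which understates changes of low genes, keeping genes that reached 1 CPM in 3 libraries or more of a fit, with Benjamini-Hochberg adjustment over all genes tested and a threshold of 0.05. Diaphragm (24 libraries), spinal cord (12) and both Cre-positive tissues were fitted separately. Alternatives were a pseudocount of 0.1, no filter, quantile and RLE scaling, edgeR 4.0.16 on recovered reads, a replicate block, only the groups compared, leaving out each library, and leaving out the intermediate libraries. The fit was also run on simulated data, in which libraries were independent and all genes shared the same relative spread beyond counting. Unlike the data here, these held no intermediate libraries, so that run does not bear on them. The ratio tests used scipy 1.17.1.

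Members and gene lists were chosen with earlier results of these data known. The p-values of the members are thus not shown to be independent of that choice. Other named genes are the 5 most like each member (1 of those of Mt3 is not reported here) and, per list, up to 2 called genes in each direction with the largest difference, with Mtf1 and Slc30a1 always given. Gene IDs were matched to RefSeq GRCm38.p6 (18719 of 18845).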

Additional observations from a re-analysis of the deposited data

Results flagged for a closer look

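The tissue difference of Mt3 (spinal cord minus Cre-positive diaphragm) changed by 2.14 on the log2(CPM + 1) scale from P10 to adult, tested as a change of the difference (adjusted p = 0.0032 in limma). The contrast was added after the levels were seen, and 34.3% of all genes passed it. Without the intermediate libraries the Mt3 call was lost (2.41, adjusted p = 0.083 in limma). Mt1 moved in opposite directions between spinal cord and Cre-positive diaphragm from E15.5 to P0.5. Every spinal cord library was higher at P0.5 (4.11) and every Cre-positive diaphragm library lower (-0.43), a gap of 4.55 that was not tested. In Cre-negative diaphragm Mt1 was 1.17-fold higher at P0.5, with overlap. Over all genes the median diaphragm change, as the mean of both genotypes, was -0.38, and 0.06 with quantile scaling. Mt3 moved in opposite directions from P10 to adult in spinal cord (0.48) and in Cre-negative diaphragm (-2.00), a gap of 2.48 that was not tested either.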

How the results depend on the processing

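The differences described for spinal cord kept their direction in 48 of 48 values under other settings and in 35 of 36 with 1 library left out, the exception being Mt3 from P0.5 to P10. With all settings but the single libraries left out, 293 tested member values kept direction and call, 18 turned sign without passing either way, 20 lost the call and 5 reversed. A pseudocount of 0.1, no filter and the replicate block changed no member's call. With the replicate block the Cre difference at E15.5 had adjusted p = 0.045 for Mt1 and 0.0023 for Mt3 in limma, and the count called at E15.5 was 1457 against 1522. Same-numbered libraries deviated together with r of -0.0959 to 0.109, so the numbers do not show pairs. Calls lost without the intermediate libraries were the Cre difference at E15.5 of Mt1 (0.68) and Mt3 (2.86), the diaphragm changes of Mt3 (1.14, 1.58 and -1.87) and of Mt1 from P10 to adult (0.62), the spinal cord changes from P10 to adult of Mt1 (0.61) and Mt2 (0.43), the tissue difference of Mt2 at P10 (1.10) and the change of that of Mt3 (2.41). Genes called then numbered 7, 108, 0 and 14 for Cre at the 4 ages, against 1522, 3844, 201 and 1659 (edgeR called 49 at P10 with all libraries, and 246 genes had an unadjusted p under 0.05 in limma without them), and 2401, 1110 and 873 for the diaphragm ages, against 6453, 4772 and 4431. With edgeR the Mt3 calls for Cre at E15.5 (3.17, adjusted p = 0.054) and for diaphragm from E15.5 to P0.5 (1.37, 0.087) and P10 to adult (-1.45, 0.086) were lost. The tissue difference of Mt1 reversed with edgeR (-0.78 at P10, -1.11 in adults), with quantile scaling (-0.69 and -0.73) and, in adults, with RLE (-0.82). That of Mt2 lost its call with edgeR (0.29 and 0.68), quantile scaling (0.13 and 0.72) and, at P10, RLE (0.50). Fitting only the groups compared lost Mt3 for Cre at E15.5 (2.81, adjusted p = 0.053 in limma) and for diaphragm from E15.5 to P0.5 (1.02, 0.062). Counts for Cre were 706 at E15.5 and 49 at P10 with edgeR, 2434 and 365 with no filter, and 1252 at P0.5 and 1196 at P10 with only the groups compared. Leaving out 1 library at a time gave 0.55 to 0.71 for the Cre difference of Mt1 at E15.5, -1.10 to -0.48 for that of Mt2 at P0.5, -0.66 to -0.34 for Mt2 and 0.65 to 1.31 for Mt3 in diaphragm from E15.5 to P0.5, and -2.63 to -1.31 for the change of the Cre difference of Mt3. The counts for Cre were 693 to 1538 at E15.5, 44 to 155 at P10 and 844 to 1639 in adults. For values whose call or direction differed, the cause was not tested. Depth bears mainly on Mt3 in diaphragm, where 1 library had 0 reads and the next lowest 201.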
